A study of Arabidopsis thaliana with 6 samples.

Results

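The 35 aquaporin genes of *Arabidopsis thaliana* were followed in *flu* seedlings that reached the light directly or after 4 h of darkness. Members were chosen by gene identifier from the PIP, TIP, NIP and SIP subfamilies. Of the 35, 25 stood in the table of 11167 genes, and 24 reached 5 reads in a library or more and entered the test, among 10622 genes. Both groups were whole 2-week-old seedlings of the *flu* 1-1 mutant in the Col-0 ecotype, equilibrated for 1 h or more in water and then held in water for 0 h or 4 h in darkness, after which 30 min of light at 30 µE was given. FLU restrains the synthesis of chlorophyll precursors, and without it protochlorophyllide builds up in darkness and generates singlet oxygen when light returns. Each group comprised 3 libraries of bulk MARS-seq, a method that reads transcript 3′ ends. There was neither a wild type nor a group kept 4 h in the light. Effects of darkness, of singlet oxygen formed after it, of hours in water and of time of day therefore cannot be told apart. A treatment field words the hours as exposure to light, while the protocol and design text give darkness, which was followed. The data list of the study names cycloheximide for this dataset, but titles, genotype labels and the table's name give *flu*, and the values are read here on the labels' word. Growth was in continuous light by the labels and in a day-night cycle by the study's methods. The labels do not state separate cultures per replicate, and p-values measure the spread between these libraries.

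Aquaporins are membrane channels that let water follow its gradient. Plasma membrane intrinsic proteins (PIPs) sit in the cell's outer membrane, where PIP2 members are efficient water channels and PIP1 members mostly reach the membrane in joint tetramers with them. Tonoplast intrinsic proteins (TIPs) do the same for the vacuole and also pass small solutes such as ammonia and urea. Nodulin-26-like proteins (NIPs) carry mainly metalloids such as boric acid, and small basic proteins (SIPs) lie in the endoplasmic reticulum. In whole seedlings PIPs and TIPs set how easily water moves between soil, cells and vacuoles. Gene names are given in the hyphenated protein form, so that PIP2-3 is the gene often written with a semicolon between both digits.

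The libraries held between 1012425 and 2185464 reads assigned to genes. Levels are given as CPM, the read count of a gene scaled to a common library size, and 3 reads corresponded to 1.37 to 2.97 CPM, covering counting error only. Reads at the 3′ end are not divided by transcript length and may include amplification copies, so levels of different genes are compared only roughly. Markers of leaf mesophyll and of root cells were both detected. Of 8 leaf markers 6 were lower after 4 h, against 8.18% of all genes. The summed level of all 8 was 40201 to 48379 CPM after 0 h and 34039 to 44484 CPM after 4 h. RBCS1A, the largest part of that sum, had a log2 fold change of -0.0067 and PSBO1 one of -0.13, and neither was called. The part of tissue make-up in the 6 falls was not tested. Of 11 root markers 2 were lower, nearer to the share of all genes, namely the lectin-like gene PBP1 and the cell wall gene PRP3. The root sum was 415, 733 and 427 CPM after 0 h and 416, 467 and 355 CPM after 4 h. Without PBP1 and PRP3, the 2 markers called in these same data, it was 172 to 186 CPM and 175 to 244 CPM. The other 9 moved both ways, from a log2 fold change of -2.23 for COBL9 to 0.72 for SCR, and none was called. None of 3 guard cell markers was called, against 16.6% of all genes, at sums of 32.3 to 50.8 CPM and 38.8 to 47.5 CPM.

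After 4 h of darkness 6 aquaporin transcripts were higher and 2 were lower at an adjusted p under 0.05 (edgeR's quasi-likelihood test with Benjamini-Hochberg adjustment over all genes). The genes that rose were TIP2-1, TIP1-2, TIP2-3, TIP3-2, PIP2-3 and PIP1-3, and those that fell were PIP1-4 and NIP6-1. The 8 calls made up 33.3% of the 24 tested, against 16.6% of all genes. The 6 rises were 25% of the members against 8.37% of all genes, and the 2 falls 8.33% against 8.18%. The groups did not overlap for 10 members, or 41.7%, against 32.3% of all genes. At an unadjusted p under 0.05 there were likewise 10 members, against 28.6% of all genes. The family's median log2 fold change was 0.03 and that of all genes tested -0.06, with members on both sides of 0. In whole seedlings fewer cells of a type and less RNA per cell cannot be told apart.

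**Figure D1:**
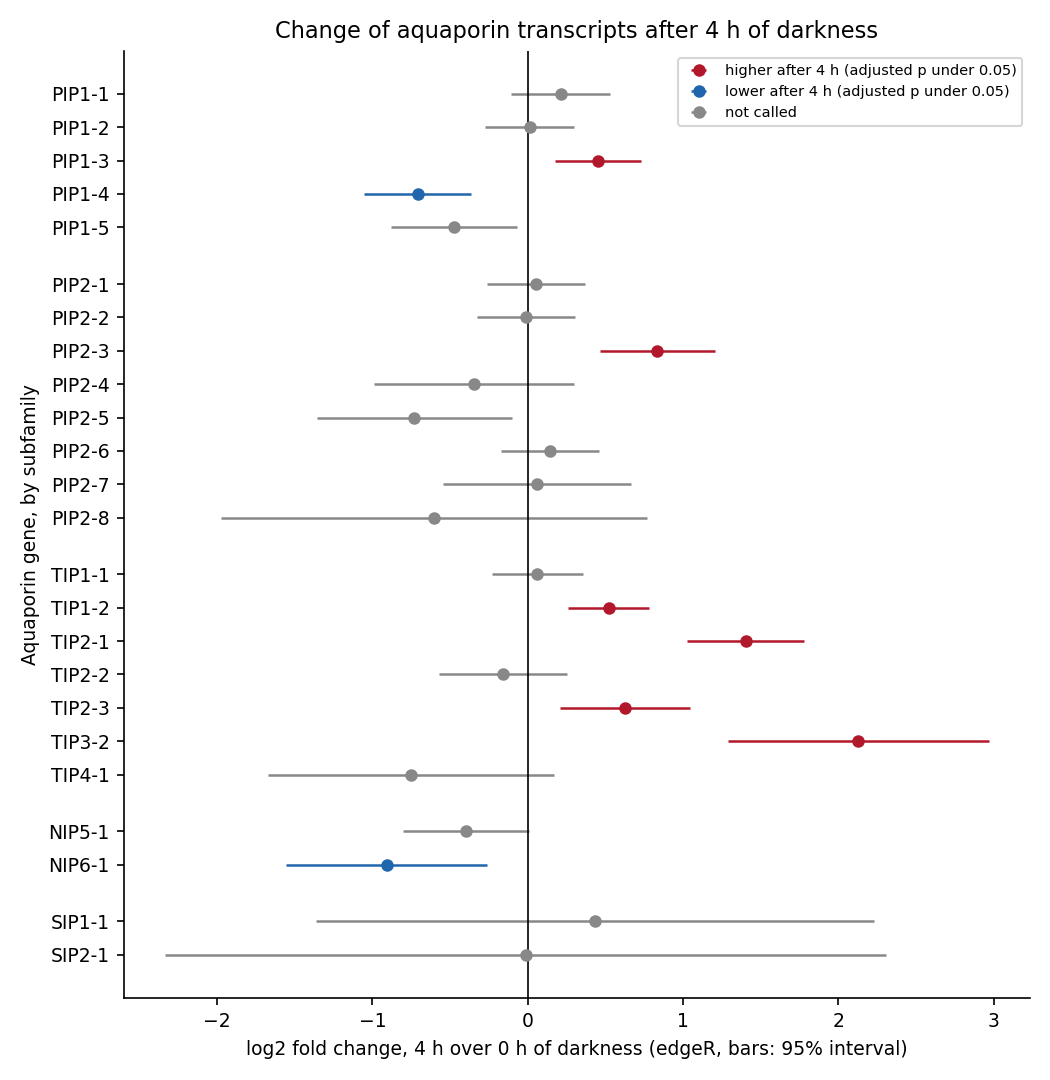
Fitted log2 fold changes (4 h over 0 h of darkness, x axis) of the 24 tested aquaporin genes, in rows by subfamily, with 95% intervals as bars. The 6 genes in red were higher and the 2 in blue lower at an edgeR adjusted p under 0.05, and 4 of the 6 higher genes are TIPs.

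Among the TIPs, 4 of the 7 tested rose, against 8.37% of all genes, and none passed the test for a fall. Their median log2 fold change was 0.52. TIP2-1 (AT3G16240), or delta-TIP, a vacuolar channel for water and ammonia, was measured at 2052, 1916 and 1959 CPM after 0 h and at 3741, 7715 and 4250 CPM after 4 h. Every 4 h library lay far above every 0 h library, and replicate 2 stood well above the other two of its group. The log2 fold change was 1.41 (SE 0.18, adjusted p = 4.37e-06 in edgeR), a 2.65-fold rise with a 95% interval of 2.04 to 3.44. Without replicate 2 of the 4 h group it was 1.03 (adjusted p = 3.24e-05 in edgeR).

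TIP1-2 (AT3G26520), a vacuolar water channel close to gamma-TIP, was found at 3904, 4307 and 4390 CPM after 0 h and at 5543, 6244 and 6301 CPM after 4 h. These were the highest CPM of the family in most libraries, and the replicates lay close together in both groups. The change of 0.52 on the log2 scale (SE 0.13, adjusted p = 0.0045 in edgeR) was a 1.44-fold rise with an interval of 1.2 to 1.72. Gamma-TIP itself, TIP1-1 (AT2G36830), a marker of the large central vacuole, gave 1346, 1713 and 1356 CPM and then 1438, 1745 and 1429 CPM. Its groups overlapped almost fully, at a log2 fold change of 0.063 (SE 0.14, adjusted p = 0.819 in edgeR).

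TIP3-2 (AT1G17810), or beta-TIP, is known from the protein storage vacuoles of seeds. It was low throughout, with 4, 8 and 6 reads after 0 h (2.45, 4.10 and 4.13 CPM) and 39, 19 and 12 reads after 4 h (17.7, 17.2 and 11.9 CPM). All 4 h libraries nevertheless lay above all 0 h libraries. Its log2 fold change of 2.13 (SE 0.41, adjusted p = 0.000531 in edgeR) was the largest of the family and the least precise of the 8 calls, with an interval of 2.44-fold to 7.82-fold. Its seed partner TIP3-1 and 5 dry seed markers listed for comparison were not analysed here.

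TIP2-3 (AT5G47450), which passes ammonia, was at 53.2, 66.2 and 66.7 CPM and then at 91.9, 126 and 69.2 CPM. Replicate 3 of the 4 h group came within a few CPM of the highest 0 h library. The log2 fold change of 0.63 (SE 0.20, adjusted p = 0.0335 in edgeR) lost its call in 6 of 17 other settings, among them the fit without replicate 2 of the 4 h group (0.41, adjusted p = 0.245 in edgeR). TIP2-2 (AT4G17340), a paralogue expressed mostly in roots, gave 353, 469 and 342 CPM after 0 h and 429, 409 and 199 CPM after 4 h. Only replicate 3 of the 4 h group lay outside the range of the 0 h group, on the low side, and the log2 fold change of -0.16 (SE 0.20, adjusted p = 0.654 in edgeR) did not pass the test. TIP4-1 (AT2G25810), a root vacuolar channel, was spread from 3.44 to 19.5 CPM after 0 h and from 4.94 to 9.03 CPM after 4 h. Its value of -0.75 (SE 0.45, adjusted p = 0.282 in edgeR) rested on 68 and 34 reads. TIP1-3 and TIP5-1 were not analysed here.

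**Figure D2:**
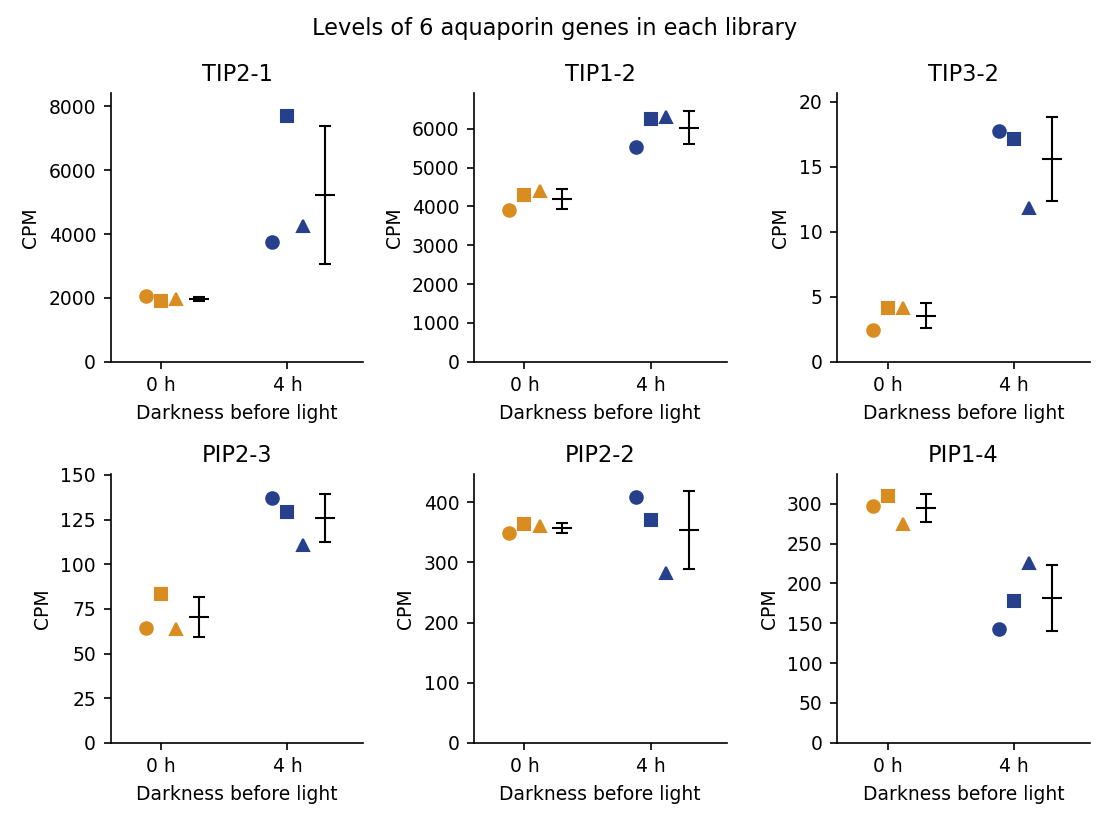
CPM of 6 aquaporin genes in each library (y axes, from 0) against hours of darkness, with circles, squares and triangles for replicates 1, 2 and 3, and mean ± SD (n = 3) beside them. TIP2-1, TIP1-2, TIP3-2 and PIP2-3 lie higher in every 4 h library, PIP1-4 lies lower, and the groups of PIP2-2 overlap.

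Of the 5 PIP1 genes 1 rose and 1 fell, against 8.37% and 8.18% of all genes, with a median log2 fold change of 0.012. PIP1-4 (AT4G00430), a plasma membrane channel that can also pass hydrogen peroxide, was at 298, 310 and 275 CPM after 0 h and at 142, 178 and 225 CPM after 4 h. All 3 libraries of the 4 h group lay below those of the 0 h group, although they were spread more widely. The log2 fold change was -0.71 (SE 0.17, adjusted p = 0.00361 in edgeR), a 1.63-fold fall with an interval of 1.29 to 2.07. PIP1-3 (AT1G01620), by contrast, was at 839, 860 and 884 CPM and then at 1068, 1238 and 1233 CPM. The groups were narrow and did not overlap. Its rise of 0.45 (SE 0.13, adjusted p = 0.0204 in edgeR) was small, at 1.37-fold with an interval of 1.13 to 1.66, and lost its call in 4 of 17 settings (edgeR adjusted p between 0.0510 and 0.0840 there).

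PIP1-5 (AT4G23400) was at 111, 181 and 99.8 CPM after 0 h and at 96.0, 92.1 and 94.9 CPM after 4 h. The groups did not overlap, but the 0 h group was drawn upward by replicate 2, and the log2 fold change of -0.47 (SE 0.20, adjusted p = 0.108 in edgeR) did not pass the test. Without replicate 3 of the 0 h group it did (-0.63, adjusted p = 0.0388 in edgeR), and without replicate 2 of that group it shrank to -0.14. PIP1-1 (AT3G61430) and PIP1-2 (AT2G45960), abundant PIP1 forms of leaf and root, gave log2 fold changes of 0.21 (SE 0.16) and 0.012 (SE 0.14). PIP1-1 was at 676, 942 and 620 CPM and then at 871, 948 and 775 CPM, and passed the test when replicate 2 of the 0 h group was left out (0.43, adjusted p = 0.0422 in edgeR). PIP1-2 lay between 1781 and 2294 CPM in all 6 libraries, and its sign turned under 3 of the other scalings and filters.

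The PIP2 genes held 1 rise among 8 tested, against 8.37% of all genes, with a median of 0.022. PIP2-3 (AT2G37180) was first described as RD28, a gene responsive to desiccation. It was at 64.2, 83.1 and 64.0 CPM after 0 h and at 137, 129 and 111 CPM after 4 h. Each 4 h library lay above each 0 h library. The log2 fold change was 0.84 (SE 0.18, adjusted p = 0.00155 in edgeR), or 1.78-fold with an interval of 1.38 to 2.30.

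Its neighbour PIP2-2 (AT2G37170), a root water channel, gave 348, 364 and 360 CPM after 0 h and 408, 370 and 283 CPM after 4 h. The 4 h libraries fell on both sides of the 0 h libraries, and the log2 fold change was -0.010 (SE 0.15, adjusted p = 0.975 in edgeR, interval from -0.33 to 0.31). PIP2-3 accordingly took 15.6%, 18.6% and 15.1% of the CPM of this pair after 0 h and 25.1%, 25.9% and 28.1% after 4 h. The pair lies head to head on chromosome 2 of the TAIR10.1 assembly, PIP2-2 on the minus strand (chr2:15613368-15615022) and PIP2-3 on the plus strand (chr2:15617635-15619155), with 2612 bases between their starts. Their coding sequences matched at 94.8% of bases, the highest identity among the 42 pairs within PIP1, PIP2, TIP1 and TIP2, in which the lowest was 69.6%.

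Because reads of such close copies could be assigned to the wrong gene, the last coding exons are shown here from the RefSeq annotation, with the bases that differ in capitals. They span 120 bases each, at chr2:15613624-15613743 on the minus strand and at chr2:15618818-15618937 on the plus strand, and differ at 10 of them.
PIP2-2: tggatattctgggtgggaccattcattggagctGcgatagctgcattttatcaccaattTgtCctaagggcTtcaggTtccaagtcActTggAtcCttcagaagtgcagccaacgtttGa
PIP2-3: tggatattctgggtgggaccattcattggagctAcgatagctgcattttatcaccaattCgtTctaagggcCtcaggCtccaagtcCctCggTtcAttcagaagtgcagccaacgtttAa
The transcript ends, where MARS-seq reads start, were compared for shared runs. In the last 300 bases none of the 42 pairs shared a run of 30 bases, and in the last 500 bases 3 pairs did, all among PIP2-1, PIP2-2 and PIP2-3. How the counting treated reads that match both copies was not given in the sources used here.

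The other 6 PIP2 genes were not called in either direction. PIP2-1 (AT3G53420), a phosphorylated water channel of roots and guard cells, lay between 644 and 941 CPM after 0 h and between 711 and 836 CPM after 4 h, with a log2 fold change of 0.054 (SE 0.15). PIP2-6 (AT2G39010), a mainly shoot-expressed channel, gave 0.14 (SE 0.15) at 246 to 264 and 257 to 332 CPM. PIP2-7 (AT4G35100) gave 0.060 (SE 0.30) at 14.9 to 17.2 CPM in every library. PIP2-5 (AT3G54820), reported to be induced by drought, was at 20.8, 19.5 and 20.6 CPM and then at 9.56, 13.5 and 14.8 CPM. Its groups did not overlap, but the log2 fold change of -0.73 (SE 0.31, adjusted p = 0.107 in edgeR) missed the threshold on 102 and 51 reads. PIP2-4 (AT5G60660), a root channel, gave -0.35 (SE 0.31) and PIP2-8 (AT2G16850) gave -0.60 (SE 0.67), the latter on 27 and 14 reads.

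**Figure D3:**
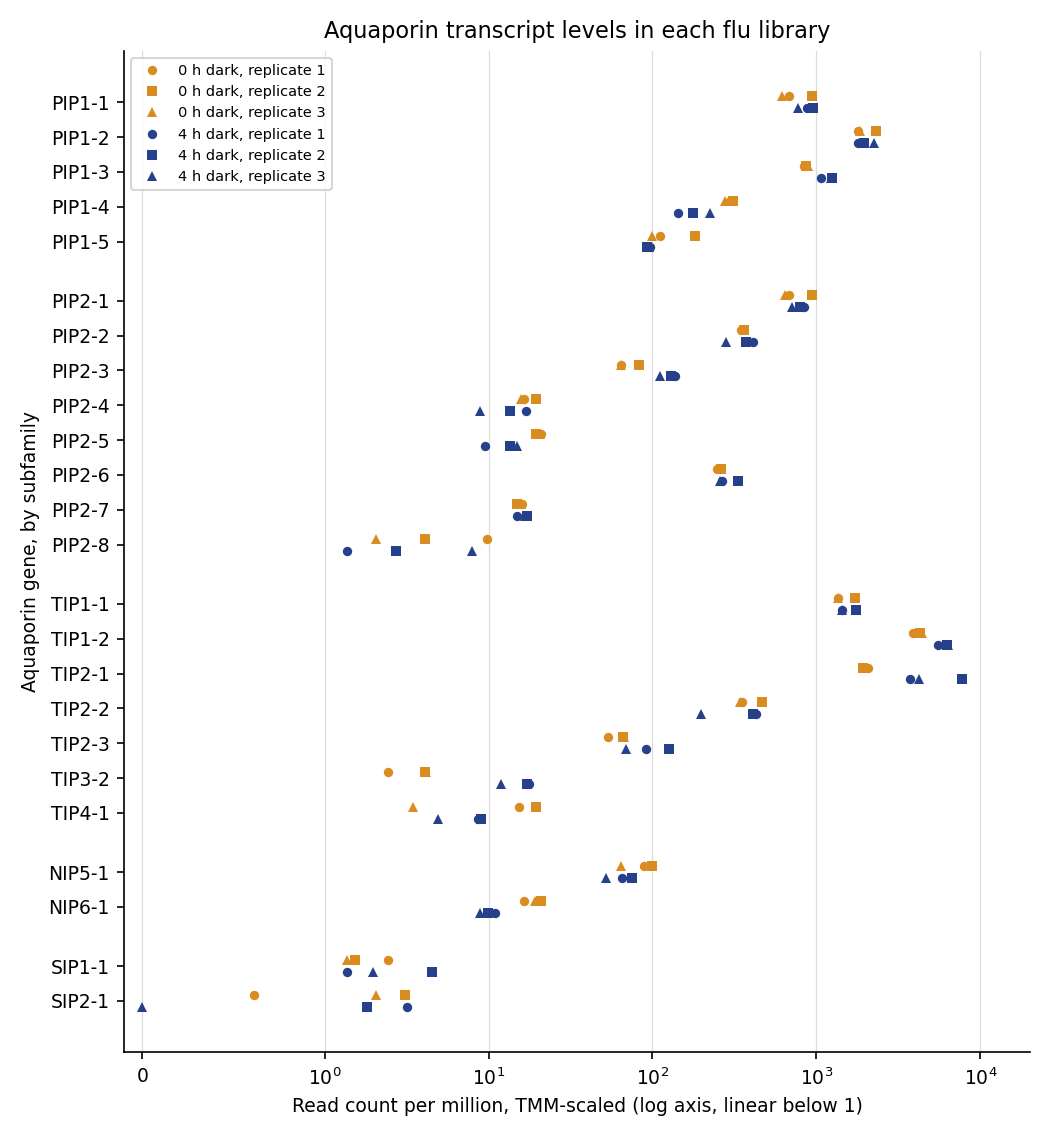
CPM of the 24 tested aquaporin genes (x axis, logarithmic above 1 and linear below) in each of the 6 libraries, in rows by subfamily, with colours for the groups and shapes for replicates. TIP1-2 and TIP2-1 reach 6301 and 7715 CPM after 4 h, while TIP3-2 and the SIP genes stay under 20 CPM.

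Both NIP genes tested are boric acid channels, NIP5-1 for uptake into roots and NIP6-1 for delivery to growing shoot tissue. NIP6-1 (AT1G80760) was at 16.5, 21.0 and 19.3 CPM after 0 h and at 10.9, 9.93 and 8.90 CPM after 4 h. The groups did not overlap, and the 0 h group was the wider, with an SD of 2.28 CPM against 1.01 CPM. The log2 fold change of -0.91 (SE 0.31, adjusted p = 0.0477 in edgeR) lay just inside the threshold on 96 and 44 reads, and was lost in 11 of 17 other settings, with edgeR adjusted p values up to 0.151. NIP5-1 (AT4G10380) was at 89.3, 99.0 and 64.7 CPM and then at 65.1, 74.9 and 52.4 CPM. The 4 h libraries tended to the lower side but overlapped with replicate 3 of the 0 h group, at -0.40 (SE 0.20, adjusted p = 0.187 in edgeR).

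NIP2-1 (AT2G34390), a lactic acid channel that is induced when oxygen runs low, had 1 read in the 0 h group and 5 in the 4 h group. The ratio of 5.84 after scaling had an exact 95% counting interval of 0.653 to 276, and no difference was detectable at this depth. NIP1-1, NIP1-2, NIP3-1, NIP4-1, NIP4-2 and NIP7-1 were not analysed here. Of the SIPs, SIP1-1 (AT3G04090) had 9 and 10 reads in the groups and a log2 fold change of 0.43 with an SE of 0.87. SIP2-1 (AT3G56950) had 10 and 9 reads, with none in replicate 3 of the 4 h group, and a value of -0.012 with an SE of 1.13. At this depth neither gene could be told from no change or from one of the size of TIP2-1. SIP1-2 was not analysed here.

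Summed over the 24 genes, aquaporin transcripts were at 12936, 14915 and 13310 CPM after 0 h and at 16997, 22431 and 18311 CPM after 4 h. Aquaporins took 1.30% to 1.51% and 1.71% to 2.16% of the raw reads assigned to genes. The TIP sum went from 7725, 8494 and 8121 CPM to 11269, 16266 and 12264 CPM, without overlap. TIP2-1 contributed much of it, and the other 6 TIP genes together stood at 5673, 6578 and 6161 CPM and then at 7528, 8551 and 8015 CPM. Most of that second rise was TIP1-2, whose mean went from 4200 to 6029 CPM within mean sums of 6138 and 8031 CPM. It therefore does not show a rise across the subfamily. PIP1 sums of 3705 to 4587 and 3960 to 4573 CPM overlapped, as did PIP2 sums of 1385 to 1709 and 1410 to 1688 CPM. TIP transcripts accordingly made up 57.0% to 61.0% of aquaporin CPM after 0 h and 66.3% to 72.5% after 4 h, and TIP2-1 alone 12.8% to 15.9% and 22.0% to 34.4%. These sums describe the chosen members and carry no test.

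**Figure D4:**
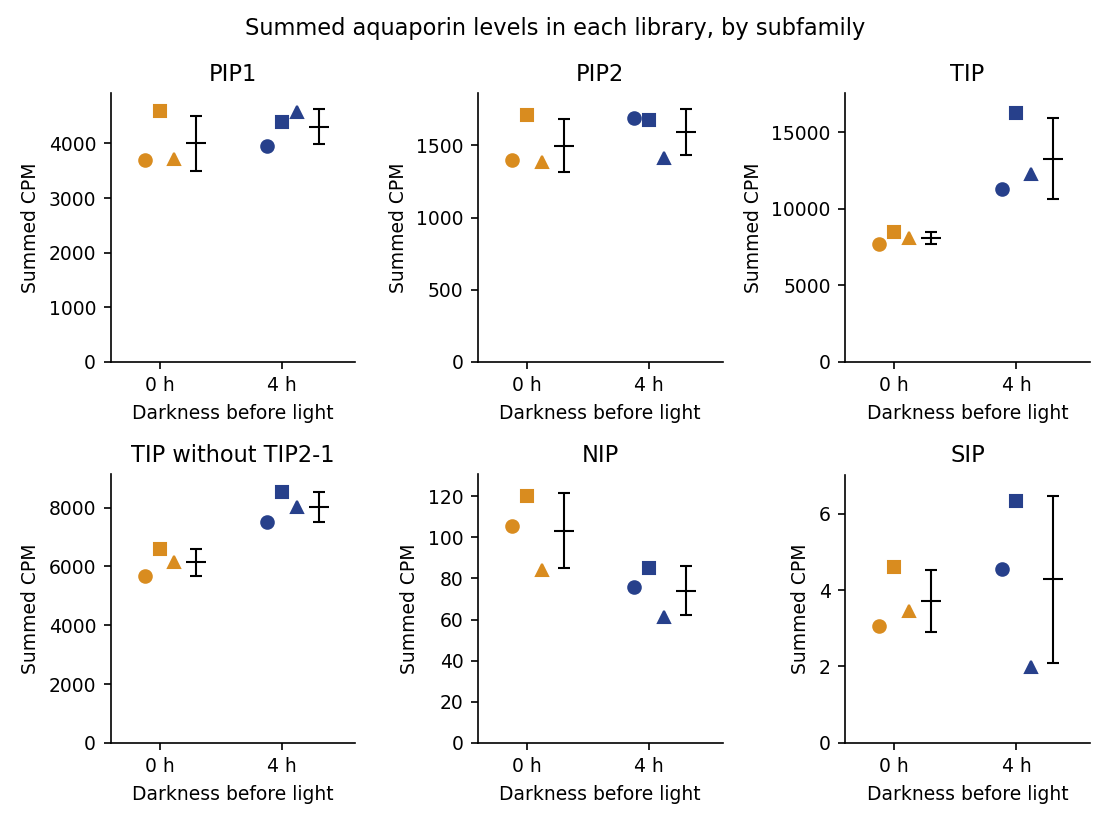
Summed CPM of each aquaporin subfamily in each library (y axes, from 0) against hours of darkness, with shapes for replicates and mean ± SD (n = 3) beside them. The TIP sums do not overlap between groups, with or without TIP2-1, whereas PIP1 and PIP2 sums do. Both TIP sums include TIP1-2, the largest part of the sum without TIP2-1.

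Some libraries stood out across the family. Replicate 2 of the 0 h group was the highest of its group for 15 of the 24 genes, against 33.6% of all genes. It also had the highest root marker sum, mostly through PBP1 and PRP3. Without these 2 markers its root sum was 186 CPM, against 172 and 176 CPM in replicates 1 and 3. With replicate 2 of the 0 h group left out, 7 aquaporins were higher and 1 lower. Replicate 3 of the 4 h group was the lowest of its group for 14 of the 24 genes, against 35.6% of all genes, and without it 5 were higher and 1 lower. Replicate 2 of the 4 h group was the lowest for only 1 gene, against 34.1% of all genes. It was the highest for 10 genes, against 30.7%, and without it 4 were higher and 1 lower. The part of tissue make-up in these differences was not tested. TIP2-1, TIP3-2, TIP1-2, PIP2-3 and PIP1-4 kept their calls in each of the 17 settings tried, including those that left out any of these libraries.

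The sequences just before the start sites are shown for TIP2-1 and TIP1-2, the highest-CPM members that rose, and for PIP1-4, the fall that held in every setting. They are the 250 bases upstream of the RefSeq start in TAIR10.1, read in the direction of the gene, for TIP2-1 (chr3:5505110-5505359, plus strand), TIP1-2 (chr3:9723905-9724154, minus strand) and PIP1-4 (chr4:187681-187930, minus strand). Capitals mark a motif match.
TIP2-1: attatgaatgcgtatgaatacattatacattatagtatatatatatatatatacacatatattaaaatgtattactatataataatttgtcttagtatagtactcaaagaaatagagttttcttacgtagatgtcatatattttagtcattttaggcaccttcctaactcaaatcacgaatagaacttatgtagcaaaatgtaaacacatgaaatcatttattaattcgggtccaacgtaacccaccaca
TIP1-2: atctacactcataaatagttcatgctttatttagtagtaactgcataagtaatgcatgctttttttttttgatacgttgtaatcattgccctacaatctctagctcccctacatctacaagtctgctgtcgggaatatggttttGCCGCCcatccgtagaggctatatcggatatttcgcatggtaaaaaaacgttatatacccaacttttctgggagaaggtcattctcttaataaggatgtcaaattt
PIP1-4: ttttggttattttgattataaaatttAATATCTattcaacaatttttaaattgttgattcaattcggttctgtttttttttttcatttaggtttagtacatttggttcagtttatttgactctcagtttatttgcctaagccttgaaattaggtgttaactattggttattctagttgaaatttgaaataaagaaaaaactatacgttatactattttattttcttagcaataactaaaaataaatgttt
Searched on both strands were the G-box CACGTG, the core of the evening element AATATCT, the W-box TTGACC, the GCC-box GCCGCC and the I-box GATAAG, of which no pair overlapped in the sequences shown. TIP2-1 held none of them in this window. TIP1-2 held a GCC-box, the only one among the 24 members, against 1.87% of 27443 promoters of protein-coding genes. PIP1-4 held the evening element core, as did TIP2-2, making 2 of 24 members against 2745 of the 27443 promoters. The I-box was in 3 of 24 members against 12.3%, and the G-box and W-box in none against 6.49% and 12.2%. Among 10373 promoters of genes tested, the I-box was in 12.5%, the G-box in 7.64% and the W-box in 12.0%. There the GCC-box was in 1.90% and the evening element core in 10.4%. A match here is a stretch of letters, not a binding site.

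Genes that work with aquaporins were listed in 4 groups. Of 7 measured regulators of aquaporin delivery, phosphorylation or turnover, SYP121 (AT3G11820), a membrane fusion protein that helps to bring PIP2 channels to the plasma membrane, rose from 89.3, 122 and 114 CPM to 299, 311 and 242 CPM. The groups were well separated, and the log2 fold change was 1.39 (SE 0.17, adjusted p = 1.32e-06 in edgeR). No other regulator was called, so that 14.3% of the list passed, against 16.6% of all genes. The ubiquitin ligase gene RMA3 had 2 reads after 0 h and 11 after 4 h, of which 8 came from 1 library. The scaled ratio of 6.42 had an exact 95% counting interval of 1.4 to 59.6, which is too narrow where reads are amplification copies, and the fit between replicates gave an interval of 0.964-fold to 27.3-fold (adjusted p = 0.185 in edgeR). RMA1, another ubiquitin ligase gene, gave -0.46 (SE 0.28) and the kinase gene BAK1 0.29 (SE 0.27), and the list's median log2 fold change was -0.019.

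Proton pumps, which energise the membranes that hold PIPs and TIPs, were lower in 2 of 10 cases, against 8.18% of all genes, and higher in none, at a median of -0.47. The plasma membrane ATPase genes AHA2 and AHA3 fell by 1.1 (SE 0.28, adjusted p = 0.0073 in edgeR) and by 1.17 (SE 0.36, adjusted p = 0.027 in edgeR) on the log2 scale. AHA2 was at 36.1, 70.3 and 34.4 CPM and then at 29.1, 16.3 and 17.8 CPM, with replicate 2 of the 0 h group again the highest. AHA3 was at 22.0, 13.3 and 44.7 CPM and then at 13.2, 10.8 and 9.89 CPM. Its groups nearly touched, and replicate 3 of the 0 h group stood well above the rest. AHA11 (-0.54, SE 0.21) and the vacuolar ATPase subunit gene VHA-A3 (-0.52, SE 0.25) did not pass. Among 5 measured partners of solute-carrying channels only AMT2, an ammonium transporter, was called, against 16.6% of all genes. It rose by 0.75 (SE 0.23, adjusted p = 0.022 in edgeR) on the log2 scale, while AMT1-2 (-0.49, SE 0.34), AMT1-3 (-0.87, SE 0.83) and AMT1-1 (0.053, SE 0.16) were not called.

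Of 8 dehydration genes 2 rose, against 8.37% of all genes, and none passed the test for a fall, with a median of 0.23. These were the dehydrin gene ERD14 (0.74, SE 0.13, adjusted p = 0.0003 in edgeR) and the desiccation-responsive gene RD29A (0.86, SE 0.20, adjusted p = 0.00322 in edgeR). ERD14 stood at 783, 758 and 828 CPM after 0 h and at 1252, 1382 and 1313 CPM after 4 h, in narrow groups. P5CS1, of proline synthesis, gave -0.70 (SE 0.27, adjusted p = 0.079 in edgeR) and ERD10 0.42 (SE 0.18, adjusted p = 0.117 in edgeR). Neither passed the threshold.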

How the data were processed

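RNA of 6 libraries (3 per group) was extracted with Trizol, prepared by bulk MARS-seq and sequenced on an Illumina NextSeq. Groups and replicate numbers came from the sample titles. Per the submitters' notes, reads were converted with bcl2fastq 2.17.1.14 and trimmed with cutadapt 1.8.3, and STAR, HTSeq and DESeq2 are also named. The methods of the study give mapping to an Araport reference. The authors deposited raw read counts. The table's name says that molecular identifiers were not filtered, so amplification copies may be counted. The deposited table also holds a signal, counts divided by 1 size factor per library, used only as an alternative scaling, and regularised log2 values, which the authors deposited and which were not tested.

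A gene was kept where any library held 5 or more of its reads (10622 of 11167). Counts were scaled by TMM and tested with edgeR 4.0.16 (quasi-likelihood, group as the only term, R 4.3.3), with Benjamini-Hochberg adjustment at 0.05 over all genes. The study used DESeq2, which was run as an alternative (1.42.0), as were limma-voom (limma 3.58.1), other scalings and filters, a replicate block, thinning, leaving out organelle genes and leaving out each library. Intervals are at 95%. Each SE was computed from the log2 fold change and the F statistic of the edgeR test, and fold change intervals were built from that SE. The fit was tested on simulated data. Members, lists, markers and motifs were chosen with earlier results of these data known. All members are named, and of each list up to 4 genes by smallest p. Positions and sequences came from RefSeq on TAIR10.1, where all 35 members were found, and identity was aligned with Biopython 1.88. Protein sequences were not used here. No replicate pair agreed within sampling noise (chi-square per degree of freedom 2.86 to 5.48).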

Additional observations from a re-analysis of the deposited data

How the results depend on the processing

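In 17 other settings, 5 of the 8 calls were always kept, those of TIP2-1, TIP3-2, TIP1-2, PIP2-3 and PIP1-4. PIP1-3 lost its call with upper quartile scaling (adjusted p = 0.0510) and in 3 of the fits that left out a library, TIP2-3 with DESeq2 (adjusted p = 0.0566), with upper quartile scaling (0.0679) and in 4 such fits, and NIP6-1 with DESeq2, limma-voom, no filter, the replicate block, without organelle genes and in all 6 such fits. TIP4-1 passed without replicate 3 of the 0 h group (-1.16, adjusted p = 0.0429 by edgeR). The count of lower genes was therefore 1 in DESeq2, limma-voom, no filter, the replicate block and without organelle genes. Leaving out single libraries gave 4 to 7 higher genes, 1 to 3 lower genes and a median log2 fold change of -0.0084 to 0.17, the highest without replicate 2 of the 0 h group. Over all genes DESeq2 called 1293 and edgeR 1758.

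Libraries that share a replicate number had correlations of deviations of 0.022, 0.021 and 0.055, and all 6 libraries correlated best with their own number. Whether the numbers pair the libraries was not settled, and the main fit did not use them. The replicate block gave 6 higher aquaporins and 1 lower, and 1979 genes in all.

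Signs turned in 25 results, none called in either fit. With upper quartile scaling these were PIP1-2 (-0.069), PIP2-1 (-0.026), PIP2-7 (-0.017) and TIP1-1 (-0.017), with library size only PIP1-2 (-0.017), with filterByExpr PIP1-2 (-0.027), without organelle genes PIP2-2 (0.0031) and SIP2-1 (0.0025), and with no filter SIP2-1 (0.0012). Leaving out single libraries gave log2 fold changes of -0.083 to 0.15 for PIP1-2, -0.046 to 0.27 for PIP2-1, -0.13 to 0.12 for PIP2-2, -1.49 to 0.16 for PIP2-8, -0.025 to 0.20 for TIP1-1, -0.35 to 0.11 for TIP2-2, -0.15 to 0.85 for SIP1-1 and -0.997 to 0.57 for SIP2-1. FilterByExpr gave no value for PIP2-8, SIP1-1 and SIP2-1, and thinning none for SIP2-1. The causes were not tested. The low-read members SIP1-1, SIP2-1, PIP2-8 and TIP4-1 had wide intervals. TIP4-1 was also spread between libraries, with 25, 38 and 5 reads after 0 h.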
